A study of Mus musculus with 6 samples.

Results

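The AU-rich element binding proteins described here are the products of 10 genes chosen by name. They comprise the ELAV family (Elavl1, which encodes HuR, and its relatives Elavl2, Elavl3 and Elavl4), the tristetraprolin family (Zfp36, Zfp36l1 and Zfp36l2), and Hnrnpd, Khsrp and Tia1. Each gene was read from the brightest of its probesets that carried exactly 1 gene symbol, with brightness taken as the mean of log2(value + 1) over all arrays. All 10 were present among the 22180 genes with such a probeset, and all 10 lay above the brightness limit that left 16635 genes for testing.

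AU-rich elements are stretches of adenosine and uridine in the 3′ untranslated regions of short-lived mRNAs, among them those of cytokines, growth factors and immediate early genes. Proteins that bind these elements compete over the fate of the message. HuR generally stabilises bound mRNAs and supports their translation, the tristetraprolin family and KSRP recruit deadenylases and the exosome to degrade them, AUF1 can act in either way, and TIA-1 represses translation. HuR is found in nearly all cell types, whereas the proteins of Elavl2, Elavl3 and Elavl4 are known in brain as neuronal ELAV proteins, which also act on splicing.

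RNA from whole brain was hybridised to Affymetrix arrays of the Mouse Gene 2.0 ST type, 1 array for each of 6 samples. The 3 knockout samples came from mice of genotype Thy1Cre-ERT2-EYFPHuRf/f, with both Elavl1 alleles floxed, and the 3 control samples from Thy1Cre-ERT2-EYFPHuRf/+ mice, with 1 floxed allele; the labels designate these HuR KO and HuR WT. In both groups the Thy1 promoter, active in neurons, drove a Cre recombinase that tamoxifen switches on, together with a fluorescent EYFP reporter. All mice received tamoxifen in weeks 10 and 11 of life, and brain was collected at 91 days. By design recombination is thus directed to neurons, so other brain cells would keep both Elavl1 alleles, and the controls can lose 1 allele in the same neurons. Where recombination took place was not tested here. In whole-brain RNA, fewer cells of a type and less RNA per cell cannot be told apart. No animal is identified in the labels, so the p-values reflect only how far these samples differ from one another.

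Knockout 3 and control 3 were set apart from the other 4 arrays. Xist, the RNA that coats the inactive X chromosome of female cells, had a log2 level of 7.68 in knockout 3 and 7.69 in control 3, against 2.52 to 2.79 on the other arrays, and the labels give mice of either sex with no sex per sample. Both arrays numbered 3 lay above the other 4 in 23.4% of the genes tested and below them in 20.6%. In marker lists of brain cell types, the arrays numbered 3 lay above the rest in 12 of 14 neuron markers and in 9 of 9 endothelial markers. They lay below the rest in 9 of 11 microglia markers, 9 of 10 meningeal fibroblast markers and 6 of 10 astrocyte markers. Each group holds 1 such array, so the difference enters the spread within groups, and the comparisons of the 10 genes are also given with a term for these arrays, which was added after the data had been seen. Values without both arrays are given where they turn a sign, end an overlap or move a list. No probeset was at 0, the lowest intensity in the table being 2.47, and array medians ran from 13.4 to 14.6.

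No difference between knockout and control brain was detected for any of the 10 genes, the targeted gene included. Of the 10, 0 had a limma p-value under 0.05 after Benjamini-Hochberg adjustment, as did 0 of the 16635 genes tested (0%). At an unadjusted p under 0.05 the count was 0 of 10, against 282 genes or 1.7% of all those tested, and groups that did not overlap were seen in 0 of 10, against 5.7% of all genes. With same-numbered arrays treated as pairs, a replicate block, the count at an unadjusted p under 0.05 was again 0 of 10, against 4.85% of all genes. The log2 fold changes of knockout over control ran from -0.05 for Elavl1 to 0.15 for Tia1. Their median was 0.021, beside 0.013 over all genes tested, with 6 of 10 above 0, beside 54.8% of all genes.

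**Figure D1:**
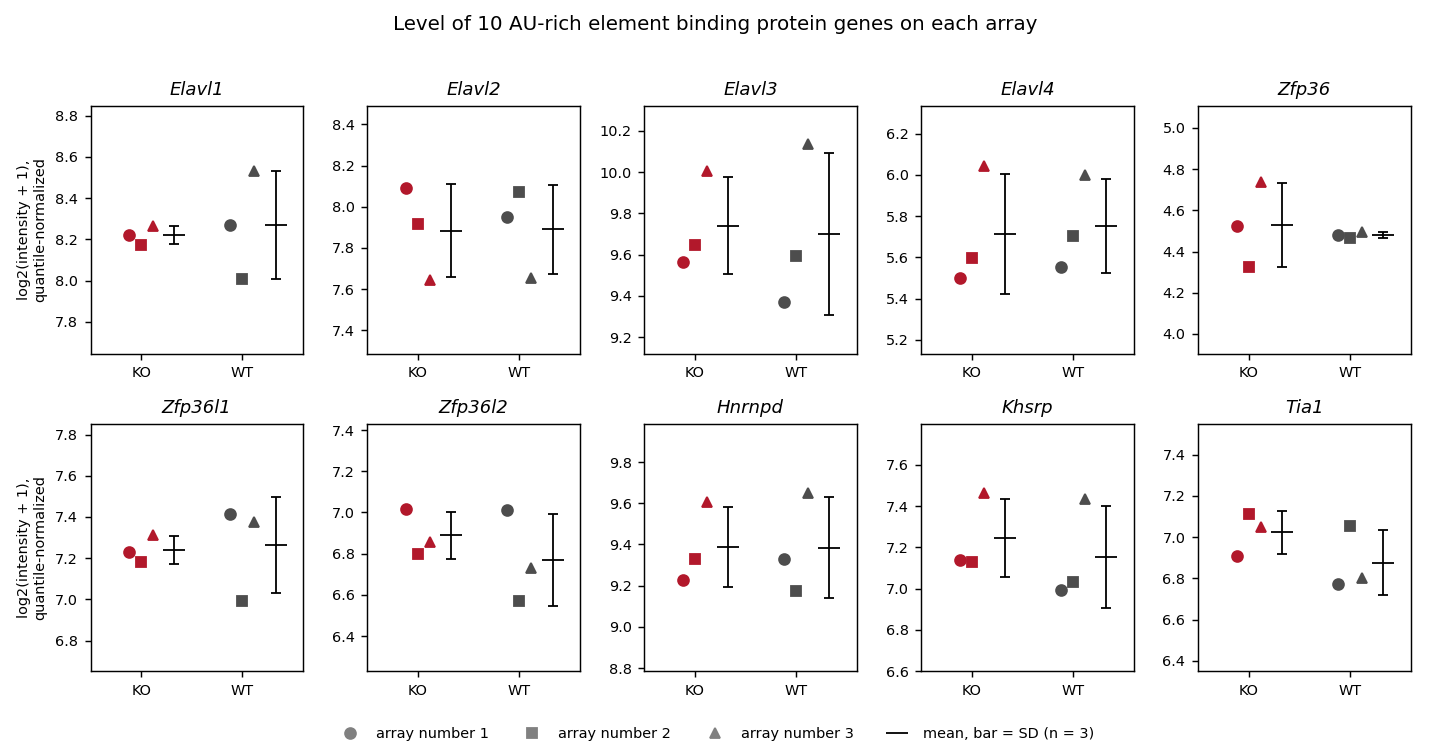
Quantile-normalized log2(intensity + 1) of each of the 10 genes (vertical axis, the same span in every panel) on the 3 knockout (KO, left) and 3 control (WT, right) arrays, with the marker shape giving the array number and the bar the mean and SD of each group (n = 3). Knockout and control points overlap in all 10 panels, and the triangles (arrays numbered 3) sit highest for Elavl3, Elavl4, Hnrnpd and Khsrp and lowest for Elavl2.

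Elavl1, the targeted gene, was read by 1 probeset (17507277). Its deposited intensity was 295, 289 and 315 in knockout brain, against 309.7, 242 and 376 in control brain. All 3 knockout values lay inside the range of the controls, and the lowest and the highest of the 6 were both controls. On the normalized log2 scale the arrays numbered 1, 2 and 3 read 8.22, 8.17 and 8.27 in knockout brain and 8.27, 8.01 and 8.53 in control brain. The means were 8.22 ± 0.046 in knockout and 8.27 ± 0.261 in control brain (SD, n = 3 each). With -0.05 as its log2 fold change, Elavl1 had a standard error of 0.15 and a limma adjusted p of 1.00, and an exact permutation test (two-sided) gave p = 0.7, the smallest p it can give being 0.1. It corresponds to 0.966-fold, with a 95% confidence interval of 0.763-fold to 1.22-fold. With a term for the arrays numbered 3 the interval narrowed to 0.804-fold to 1.16-fold. The sign of the Elavl1 difference was not stable: it was 0.058 without both arrays numbered 3 and 0.014 with arrays centred on their median, and leaving out control 3 gave 0.08 and leaving out control 2 gave -0.18. After that centring the median of all genes tested was 0.055, above the Elavl1 value. The sources used here do not place the probeset relative to the floxed part of Elavl1, so its level does not check the genotype labels.

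Elavl2, Elavl3 and Elavl4, the neuronal members of the family, were within 0.05 log2 units of equality between the groups. Elavl2 (probeset 17427164) had log2 levels of 8.09, 7.92 and 7.65 in knockout brain, against 7.95, 8.07 and 7.65 in control brain. In both groups the array numbered 3 was lowest, and the groups overlapped throughout. Elavl3 (probeset 17524895), which remains on in mature neurons, read 9.57, 9.65 and 10.01 in knockout and 9.37, 9.59 and 10.14 in control brain, with the array numbered 3 highest in each group. Elavl4 (probeset 17428228), whose product HuD is known for stabilising mRNAs of growing axons, read 5.50, 5.60 and 6.04 in knockout and 5.55, 5.70 and 6.0 in control brain, again with the array numbered 3 highest in each group. The log2 fold changes were -0.0064 ± 0.16 for Elavl2, 0.04 ± 0.21 for Elavl3 and -0.04 ± 0.18 for Elavl4 (± standard error). The signs of Elavl2 and Elavl4 turned positive when arrays were centred on their median, at 0.058 and 0.012, beside a median of 0.055 over all genes tested. The sign of Elavl2 also turned with values as deposited (0.023). The 95% interval of Elavl3, 0.726-fold to 1.45-fold, was the widest of the 10 genes, and with the term for arrays numbered 3 it was 0.869-fold to 1.22-fold. No rise of a neuronal relative beside the floxed Elavl1 was detectable at this precision. The upper bounds of the 95% intervals were 1.29-fold for Elavl2, 1.45-fold for Elavl3 and 1.3-fold for Elavl4, and with the added term they were 1.15-fold for Elavl2, 1.22-fold for Elavl3 and 1.12-fold for Elavl4.

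The tristetraprolin family encodes zinc finger proteins that bind AU-rich elements and bring in the CCR4-NOT deadenylase. Zfp36 (probeset 17488458), itself an immediate early gene, read 4.53, 4.33 and 4.74 in knockout brain, against 4.48, 4.47 and 4.49 in control brain. The controls differed from each other by less than the knockouts did, with SDs of 0.205 in knockout and 0.013 in control brain, and the highest and the lowest of the 6 arrays were both knockouts. Zfp36 was the dimmest of the 10 probesets, at percentile 28.4 of mean level among genes tested, where folds on the log2(intensity + 1) scale understate a change. Zfp36l1 (probeset 17282216) read 7.23, 7.18 and 7.31 in knockout and 7.41, 6.99 and 7.38 in control brain, so that the knockouts lay inside the control range. Zfp36l2 (probeset 17347680) read 7.02, 6.80 and 6.86 in knockout and 7.01, 6.57 and 6.73 in control brain, and its knockout array was the higher in each of the 3 same-numbered pairs. The log2 fold changes were 0.05 ± 0.13, -0.02 ± 0.14 and 0.12 ± 0.14 for Zfp36, Zfp36l1 and Zfp36l2 (± standard error). The Zfp36 value turned to -0.047 without both arrays numbered 3. The Zfp36l1 value was 0.0019 without those arrays, 0.012 on the values as deposited and 0.048 after median centring. The Zfp36l2 value was 0.019 without control 2 and 0.24 without control 1.

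Among the remaining genes, Hnrnpd encodes AUF1, Khsrp the KH-domain protein KSRP, and Tia1 the stress granule protein TIA-1. Hnrnpd (probeset 17450022) read 9.23, 9.33 and 9.60 in knockout brain, against 9.33, 9.17 and 9.65 in control brain. The groups overlapped, and the group means differed by 0.0029. Khsrp (probeset 17346427) read 7.14, 7.13 and 7.47 in knockout and 6.99, 7.03 and 7.44 in control brain. The knockout array was the higher in each of the 3 same-numbered pairs of Khsrp, by 0.15, 0.098 and 0.031. Without both arrays numbered 3, Khsrp lay higher in knockout with no overlap (log2 fold change 0.12, limma adjusted p 0.94), the only one of the 10 genes to do so, against 34.7% of all genes tested without overlap in either direction. Tia1 (probeset 17460405) read 6.91, 7.11 and 7.05 in knockout and 6.77, 7.06 and 6.80 in control brain, with pair differences of 0.13, 0.056 and 0.25. In all, 3 of the 10 genes (Zfp36l2, Khsrp and Tia1) were higher in knockout in all 3 same-numbered pairs, as were 14.2% of all genes tested, and 0 of 10 were lower in all 3, as were 10.7%. The log2 fold changes were 0.092 ± 0.16 for Khsrp and 0.15 ± 0.12 for Tia1 (± standard error), and the unadjusted limma p of 0.27 for Tia1 was the smallest of the 10. Tia1 stayed above 0 under every alternative run, from 0.094 to 0.24, and did not pass the adjusted threshold under any of them. The same held for Zfp36l2, from 0.019 to 0.24. Leaving out knockout 3 gave a Khsrp value of -0.018, leaving out control 3 gave 0.23, and leaving out control 2 gave a Tia1 value of 0.24.

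**Figure D2:**
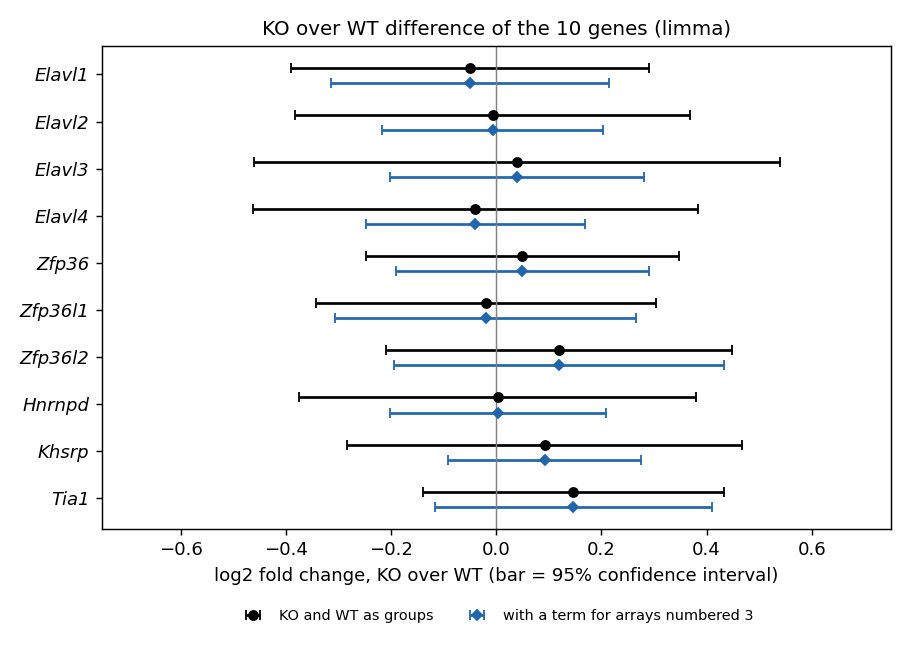
Log2 fold change of knockout over control for each of the 10 genes (horizontal axis) with its 95% confidence interval from limma, with the groups alone (black circles) and with a term for the arrays numbered 3 (blue diamonds). All 20 intervals cover 0, and the intervals with the term are the narrower in each of the 10 genes.

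The precision of these comparisons differed between genes. Half-widths of the 95% intervals ran from 0.29 log2 units for Tia1 to 0.50 for Elavl3, beside a median of 0.33 over all genes tested. With the term for arrays numbered 3, half-widths ran from 0.18 for Khsrp to 0.31 for Zfp36l2, beside a median of 0.24. The residual SD of Elavl3 was at percentile 86.7 of all genes tested and that of Elavl4 at percentile 76.1, while that of Tia1 was at 31.2. Hnrnpd and Zfp36l1 had a second probeset with the same single symbol, much dimmer than the one used. The second Hnrnpd probeset averaged 3.73 ± 0.34 in knockout and 3.77 ± 0.197 in control brain (SD, n = 3 each), at percentile 47.8 of all probesets. The second Zfp36l1 probeset averaged 3.60 ± 0.059 in knockout and 3.63 ± 0.013 in control brain, at percentile 45.0. Groups overlapped in both. With the probesets of a gene averaged, the Hnrnpd value turned to -0.019.

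The separation of the arrays numbered 3 reached 5 of the 10 genes, beside 44.0% of all genes tested, so it was not particular to these genes. By definition a separated gene lay on the same side in knockout and control brain. Elavl3, Elavl4, Hnrnpd and Khsrp lay above the other 4 arrays on both arrays numbered 3, and Elavl2 lay below them. These counts of 4 and 1 in 10 stand beside 23.4% and 20.6% of all genes tested. For Elavl3 the array numbered 3 exceeded the mean of the other arrays of its group by 0.40 in knockout and by 0.65 in control brain, and for Elavl4 by 0.49 in knockout and by 0.37 in control brain. Over both groups the difference was 0.53 for Elavl3, a 1.44-fold higher level at percentile 90.2 of absolute size among all genes tested. Elavl2, the close relative of both, went the other way by nearly the same amount in each group, with differences of -0.36 in knockout and -0.36 in control brain, a 0.781-fold level. Hnrnpd differed by 0.33 in knockout and by 0.40 in control brain, and Khsrp by 0.33 in knockout and by 0.42 in control brain. Elavl1 was higher by 0.068 on knockout 3 and by 0.39 on control 3, and it overlapped the other arrays. On the values as deposited and after median centring, comparisons added after the data had been seen, both arrays numbered 3 lay above the rest for Elavl1 too, by 0.28 and 0.31, and the 5 genes above kept their side. The tristetraprolin family and Tia1 overlapped the other arrays under all 3 scalings, with differences from -0.055 for Zfp36l2 to 0.17 for Zfp36 on the quantile-normalized scale, and the signs of Zfp36l2 and Tia1 changed with the scaling. Neuron markers moved the same way as Elavl3 and Elavl4, with a median difference of 0.40 over 14 genes. So did endothelial markers, with a median of 1.26 over 9 genes, and immediate early genes, with 0.32 over 16. Medians were below 0 for meningeal fibroblast (-0.70), microglia (-0.42), astrocyte (-0.22) and oligodendrocyte markers (-0.016). The part of any of these lists in the differences of the 10 genes was not tested. The separation was read from 6 arrays with no test, since the arrays were set apart by their own values.

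**Figure D3:**
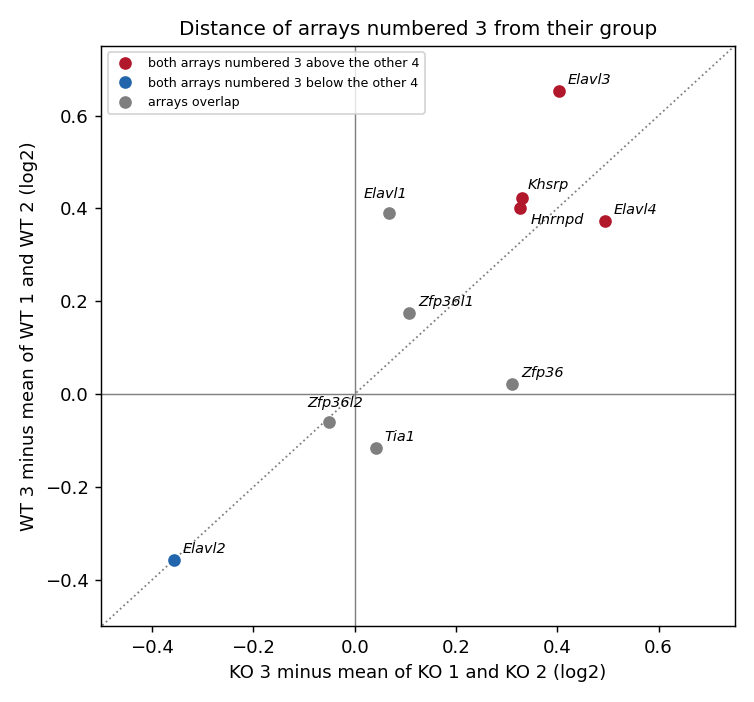
Each of the 10 genes placed by how far the array numbered 3 lay from the mean of the other 2 arrays of its group, in knockout (horizontal axis) and control brain (vertical axis), both in quantile-normalized log2 units, with the dotted line marking equal distance. Elavl3, Elavl4, Hnrnpd and Khsrp lie up and to the right, Elavl2 lies down and to the left on the line, and Elavl1 and Zfp36 are displaced in 1 group more than in the other.

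The promoters of the genes that separated together are shown for Elavl3, Hnrnpd and Khsrp, each with 1 annotated start, and that of Elavl1 as the targeted gene. Each sequence is the 250 bases before the RefSeq start on GRCm38.p6, written 5′ to 3′ in the direction of transcription. Capitals mark 3 common promoter motifs searched on both strands, the TATA box (TATAAA), the CCAAT box (CCAAT) and the GC box (GGGCGG).
Elavl3, chr9:22052024-22052273, minus strand: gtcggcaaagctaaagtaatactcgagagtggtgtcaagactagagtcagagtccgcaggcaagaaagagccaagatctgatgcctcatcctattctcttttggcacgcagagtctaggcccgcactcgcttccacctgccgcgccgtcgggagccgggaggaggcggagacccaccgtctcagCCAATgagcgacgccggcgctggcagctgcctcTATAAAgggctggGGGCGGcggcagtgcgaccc
Hnrnpd, chr5:99978939-99979188, minus strand: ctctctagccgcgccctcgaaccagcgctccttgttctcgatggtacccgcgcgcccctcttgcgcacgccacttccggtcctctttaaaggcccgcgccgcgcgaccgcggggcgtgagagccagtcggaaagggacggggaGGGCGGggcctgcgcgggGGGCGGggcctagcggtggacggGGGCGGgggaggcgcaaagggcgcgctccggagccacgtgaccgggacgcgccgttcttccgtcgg
Khsrp, chr17:57031508-57031757, minus strand: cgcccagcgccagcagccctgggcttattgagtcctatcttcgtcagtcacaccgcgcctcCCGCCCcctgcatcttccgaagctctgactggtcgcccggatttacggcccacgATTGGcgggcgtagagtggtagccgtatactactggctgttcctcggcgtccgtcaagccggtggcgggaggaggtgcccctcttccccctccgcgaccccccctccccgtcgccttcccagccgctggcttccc
Elavl1, chr8:4325101-4325350, minus strand: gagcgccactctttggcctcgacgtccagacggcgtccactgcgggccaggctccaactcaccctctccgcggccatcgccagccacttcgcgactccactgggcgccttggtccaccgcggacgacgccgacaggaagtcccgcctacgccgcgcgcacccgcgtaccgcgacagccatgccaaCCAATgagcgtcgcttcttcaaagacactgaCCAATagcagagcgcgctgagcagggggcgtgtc

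The Elavl3 window held 1 TATA box, 1 CCAAT box and 1 GC box, which did not overlap. The Hnrnpd window held 3 GC boxes and no other of these motifs. The Khsrp window held 1 CCAAT box and 1 GC box, both on the opposite strand. The Elavl1 window held 2 CCAAT boxes and no other of these motifs. Over all 32851 promoter windows of the same length, 12.4% held a TATA box, 33.8% a CCAAT box and 32.7% a GC box, so each motif is common. The G and C content was 61.6% for Elavl3, 74.4% for Hnrnpd, 67.6% for Khsrp and 67.6% for Elavl1, beside a median of 52.4% over all windows. It ran from 44% to 53.6% in the windows of Elavl4 and from 54.4% to 73.2% in those of Elavl2. Zfp36 had 64.8%, Zfp36l1 48.4% and Tia1 44%. The part of G and C content in the separation was not tested. No motif among these was shared by Elavl3, Hnrnpd and Khsrp except the GC box. Elavl4, which lay above the other arrays with them, had no GC box in any window. Elavl2, which lay below, had a GC box in most of its windows, and Zfp36, which overlapped, had 1. In all, 5 of the matched genes held a GC box, and its part in the separation was not tested. Of the 10 genes, 9 were matched in the sequence table, Zfp36l2 being the other, and Elavl2 and Elavl4 had 6 and 4 windows.

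The genes whose levels followed Elavl1 most closely over the 6 arrays were Fchsd2 (Pearson r = 0.984), Tcf20 (0.983), Slc50a1 (0.977), Slc25a10 (0.976) and Grik4 (0.975). Over the 4 arrays without number 3 their r with Elavl1 ranged from 0.911 for Slc25a10 to 0.997 for Slc50a1. Those 4 arrays were among the 6 used to pick the genes, so these values are no separate check. With 6 arrays such values are common: 143 of the genes tested had r above 0.9 with Elavl1, and 1289 with Elavl3. For the other genes the closest were Otud1 for Elavl2 (0.999), Rbfox3 for Elavl3 (0.997), Sema6b for Elavl4 (0.998), Efr3a for Zfp36 (0.994), Gab1 for Zfp36l1 (0.997), Jrkl for Zfp36l2 (0.989), Bsdc1 for Hnrnpd (0.998), Dyrk1b for Khsrp (0.998) and Mroh2a for Tia1 (0.981). Rbfox3 encodes the neuronal nuclear protein NeuN. These are descriptions across 6 arrays that share the separation of number 3.

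The genes around this group in the mRNA decay pathway showed no call either. Among 24 tested genes for other proteins that bind 3′ untranslated regions of mRNAs, 0 passed the adjusted threshold, with a median log2 fold change of 0.009. Zc3h12a, the endonuclease Regnase-1, was at -0.25 ± 0.14, the poly(C)-binding protein gene Pcbp1 at 0.17 ± 0.11 and Fubp3, a relative of Khsrp, at 0.15 ± 0.10 (± standard error), the last without overlap between groups. Of 45 genes for deadenylation, decapping, the exosome and related factors, among them Xrn1, Parn, Pabpc1, Tob1 and Btg1, 41 were tested. The CCR4-NOT genes Cnot1 and Cnot3 and the exosome genes Exosc4 and Exosc6 were not. Among the 41 tested genes 0 passed, with a median of 0.0072. Their smallest p-values belonged to the decapping genes Dcp1b, at -0.14 ± 0.099, and Edc3, at 0.19 ± 0.14, and to the exosome gene Exosc3, at -0.13 ± 0.11. Among 16 tested genes for proteins that bind, transport or modify HuR, 0 passed, with a median of 0.01, with the ubiquitin ligase gene Mdm2 at 0.15 ± 0.14, the nuclear importer gene Tnpo1 at 0.11 ± 0.11 and Set, a HuR ligand, at 0.095 ± 0.11. At an unadjusted p under 0.05 the count was 0 in all 3 lists, against 1.7% of all genes tested. Without overlap between groups, the first list held 1 gene higher in knockout (Fubp3) and 1 lower (Fubp1, at -0.10). The second list likewise held 1 higher (Exosc5) and 1 lower (Dcp1b), and the third held 0, against 5.7% of all genes tested. Fubp1 and Exosc5 are named after their values had been seen.

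Of 20 mRNAs with AU-rich elements that the tristetraprolin family is known to target, 14 were tested, 0 were called after adjustment and 2 had a limma p under 0.05 before it, against 1.7% of all genes tested. The chemokine gene Ccl3 had log2 levels of 4.17 ± 0.163 in knockout and 3.66 ± 0.212 in control brain (SD, n = 3 each). Junb, an AP-1 transcription factor gene, had 7.07 ± 0.192 in knockout and 7.37 ± 0.062 in control brain. The cytokine gene Tnf, the founding target of tristetraprolin, had 3.85 ± 0.068 in knockout and 3.63 ± 0.082 in control brain. Nfkbiz, an inhibitor of kappa B family gene named after its value had been seen, had 4.50 ± 0.171 in knockout and 4.26 ± 0.084 in control brain. Groups did not overlap in these 4 of the 14 genes, 3 higher and 1 lower in knockout, against 5.7% of all genes tested, and each had a limma adjusted p of 1.00. Ccl3 and Tnf were dim, near the array medians. The list median was 0.047, and -0.094 when only the upper 50% of genes by level was tested. It was 0.11 without both arrays numbered 3, -0.016 without knockout 1 and 0.13 without control 3.

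Marker genes of brain cell types were read on the same arrays. Summed intensities of 14 neuron markers ran from 15881 to 21626 in knockout and from 14933 to 21585 in control brain, with a median log2 fold change of 0.06 and 13 of 14 above 0, beside 54.8% of all genes tested. The neuronal nuclear marker Rbfox3 was at 0.0088 ± 0.19 and the filament gene Nefm at 0.22 ± 0.29 (± standard error). Summed intensities of 11 oligodendrocyte markers ran from 5489 to 5858 in knockout and from 5771 to 6833 in control brain, with a median of -0.19 and 10 of 11 below 0, the other being Mbp at 0.012. Opalin at -0.58, Cldn11 at -0.25, Mal at -0.20 and Mog at -0.19, the last named after its value had been seen, were lower in knockout with no overlap between groups, 4 of 11 against 5.7% of all genes tested. The part of these markers in the levels of the 10 genes was not tested. Those of 10 astrocyte markers ran from 7372 to 8374 in knockout and from 7296 to 7699 in control brain (median 0.052, Gfap at 0.15). Those of 11 microglia markers ran from 1080 to 1714 in knockout and from 1129 to 1653 in control brain (median -0.01, Cx3cr1 at -0.078). Those of 9 endothelial markers ran from 243 to 665 in knockout and from 301 to 610 in control brain (median 0.0016, Cldn5 at 0.048). Those of 10 meningeal fibroblast markers ran from 982 to 1695 in knockout and from 822 to 1894 in control brain (median 0.15, Col1a1 at 0.36). For 16 immediate early genes the range was 1911 to 2448 in knockout and 1907 to 2997 in control brain (median -0.092, Fos at -0.16). Groups overlapped in all these sums, in which bright genes weigh most. Mean log2 levels of the oligodendrocyte markers did not overlap, at 8.66 to 8.75 in knockout and 8.77 to 9.06 in control brain. Those of the other marker lists and of the immediate early genes overlapped. In all these lists, 0 genes passed the adjusted threshold. At an unadjusted limma p under 0.05 these lists held Opalin and Junb, against 1.7% of all genes tested. With the replicate block, Aspa, Slco1a4, Col3a1 and Ier2 also had an unadjusted p under 0.05 (0.024, 0.049, 0.031 and 0.049), against 4.85% of all genes, and they are named after their values had been seen.

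Several of these list medians changed sign when 1 array was left out. The endothelial median ran from -0.42 without knockout 3 to 0.25 without control 3, and was -0.17 without both. The meningeal fibroblast median ran from 0.34 without knockout 3 to -0.12 without control 3, and was 0.095 without both. The microglia median ran from 0.14 without knockout 3 to -0.14 without control 3, and was 0.021 without both. The neuron median was -0.04 without knockout 3 and also without control 1, 0.0092 without control 2 and 0.20 without control 3. The immediate early median ran from -0.24 without control 2 to 0.14 without control 3, and was 0.02 without both arrays numbered 3. The oligodendrocyte median stayed below 0 with any 1 array left out, from -0.23 without control 2 to -0.089 without control 1, and was -0.16 without both arrays numbered 3. The astrocyte median stayed above 0, from 0.019 without knockout 2 to 0.14 without knockout 3. The 3 lists of other binding proteins, decay enzymes and HuR partners lay between -0.021 and 0.077 with any 1 array left out. Without both arrays numbered 3 the median of the decay enzymes turned to -0.0077.

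**Figure D4:**
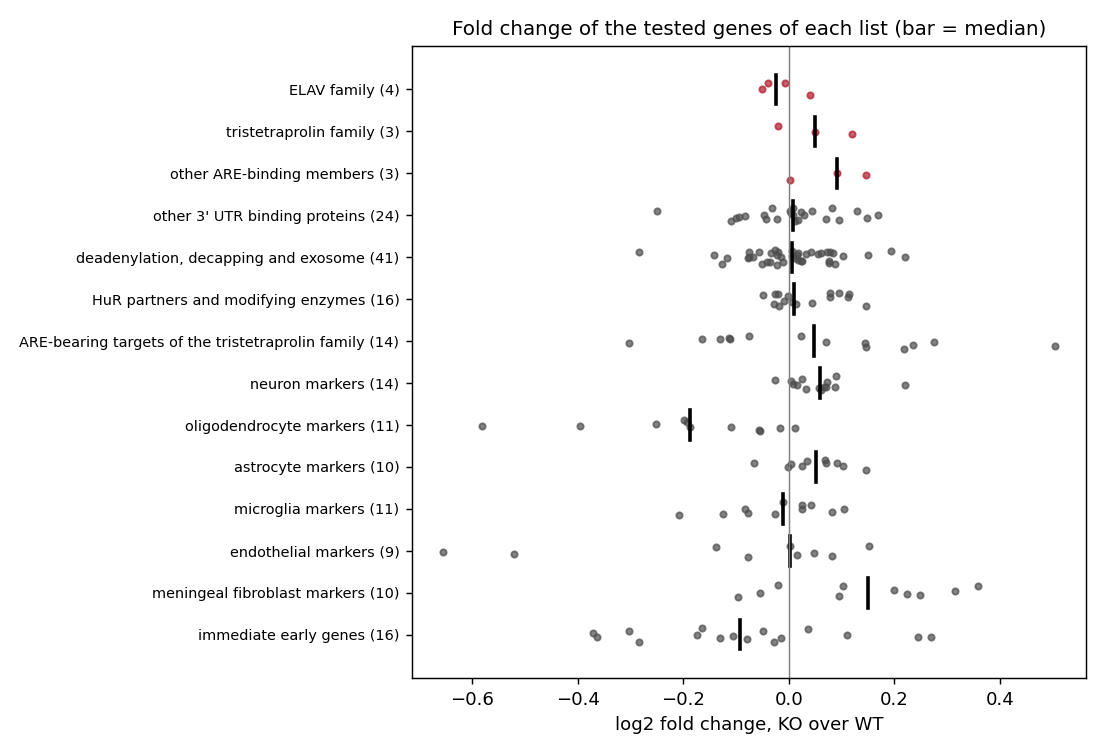
Log2 fold change of knockout over control (horizontal axis) for every tested gene of each list, with the number tested in brackets and a black bar at the median, and the 10 AU-rich element binding protein genes in red in the top 3 lines. The red points lie between -0.05 and 0.15, and the lowest medians belong to oligodendrocyte markers (-0.19) and immediate early genes (-0.092).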

How the data were processed

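Whole-brain RNA of 6 samples was measured, 3 HuR KO and 3 HuR WT. Per the labels' protocols, 150 ng of TRIzol-extracted RNA was biotinylated by means of the Affymetrix WT Plus kit. The authors deposited linear-scale intensities of 41340 probesets. Per the submitters' processing notes MAS5 was used, with no version stated; the sources used here do not give the background correction or the scaling. Some scaling is likely, since array medians are close, so a change shared by all genes could not be seen.

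Intensities were transformed as log2(intensity + 1) and quantile-normalized, since array medians differed by 0.12 on the log2 scale. The annotation table gave 23521 probesets 1 symbol and 1814 several, and 16005 were unnamed. The brightest 1-symbol probeset stood for each of 22180 genes, and the dimmest 25% of them were left out. The groups were compared by the two-sided moderated test of limma 3.58.1 (lmFit, eBayes; R 4.3.3), with Benjamini-Hochberg adjustment over 16635 genes. The procedure was run on simulated data in which every array varied independently. Those data held no separation of the arrays numbered 3, so they cannot show how the procedure performs under it. Elavl1 also had an exact permutation test over 20 assignments. Intervals rest on 3 arrays per group, which limits precision. Plots were drawn with matplotlib 3.10.9. The 10 genes, the lists and the tests were chosen with earlier results of these data known.

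All 10 genes were named, with up to 3 list members of smallest p, the first gene of each marker list and, by Pearson correlation, the genes most like each of the 10 (5 for Elavl1). Predicted, small RNA, sex-linked and olfactory or vomeronasal receptor genes were passed over. Fos, the first gene of the immediate early list, was named outside this rule. Arrays sharing a number deviated together from their group means (r = 0.31, 0.37 and 0.75 for numbers 1, 2 and 3), above the limit of 0.1 for taking them as pairs. No label states this pairing, and knockout 2 correlated with control 1 at 0.40, so it is specific for number 3 alone. Alternatives covered normalization, pseudocount, filter, probeset rule, variance model, replicate block and arrays left out.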

Additional observations from a re-analysis of the deposited data

How the results depend on the processing

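None of the 10 genes passed the adjusted threshold, and none had an unadjusted p under 0.05, under any alternative run; the smallest unadjusted limma p was 0.104, for Tia1 without control 2. Over all genes, 0 passed the adjusted threshold in every setting. The count at an unadjusted p under 0.05 was 282. It was 806 with the replicate number as a block (replicate block), 769 with a term for arrays numbered 3 (chosen after seeing the data) and 854 without both arrays numbered 3. With no filter on dim genes, where more genes are tested, it was 465, and with the upper 50% of genes it was 88. It ran from 163 without knockout 2 to 574 without control 3. The replicate block changed no call among the 10 genes. Centring on array medians moved the median of all genes tested to 0.055.

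Signs of small differences turned in 10 cases apart from single arrays left out. After centring on array medians, values were 0.014 for Elavl1, 0.058 for Elavl2, 0.012 for Elavl4 and 0.048 for Zfp36l1. Such centring moves all genes of an array by the same amount, and the median of all genes tested was then 0.055. With values as deposited they were 0.023 for Elavl2 and 0.012 for Zfp36l1. Without both arrays numbered 3 they were 0.058 for Elavl1, -0.047 for Zfp36 and 0.0019 for Zfp36l1, and with probesets averaged -0.019 for Hnrnpd. The cause was not tested. Leaving out 1 array at a time, values ran from -0.18 to 0.0805 for Elavl1, -0.13 to 0.11 for Elavl2, -0.12 to 0.26 for Elavl3, -0.20 to 0.084 for Elavl4, -0.054 to 0.15 for Zfp36, -0.15 to 0.056 for Zfp36l1, 0.019 to 0.24 for Zfp36l2, -0.11 to 0.14 for Hnrnpd, -0.018 to 0.23 for Khsrp and 0.095 to 0.24 for Tia1. The median of the 10 ran from -0.055 to 0.092.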
